A study of Mus musculus with 7 samples.

Results

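Collagen genes were taken from the array as the non-control probes whose gene name has the form Col, a number, the letter a and a number. This gave 42 genes and 63 probes of the 36374 gene names and 55681 probes on the array. They were grouped by the kind of matrix their chains build: 11 fibrillar genes (11 probes), 10 genes of the basement membrane zone (16 probes) and 21 others (36 probes). A single probe stood for 28 genes, and 14 genes had more. A probe named Gm7455 and a probe named Emid2, which RefSeq calls Col6a5 and Col26a1, lie outside this naming rule and were not counted among the members. A row for Col6a3 was not analysed here.

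The study set 3 arrays of apical ectodermal ridge (AER) against 4 arrays of posterior limb surface ectoderm (Ectoderm). All came from C57/Bl6 mouse embryos at embryonic day 11.5, with the ridge microdissected from the forelimb. Each array held Cy3-labelled RNA of a pool of 2 to 3 mice, so every p value measures the spread between pools, taken as separate. Whether Ectoderm replicates 2 and 4 share tissue is not stated. The embryos of both groups carried no other treatment or allele in the labels.

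Collagens are extracellular proteins whose chains wind around each other in a helix, which requires a glycine at regular steps along the chain. Fibrillar collagens (types I, II, III, V, XI) form the fibres of connective tissue and cartilage and are made mainly by mesenchymal cells. Type IV collagen forms the sheet-like network of basement membranes, and types VII, XVII, XV and XVIII lie at or near that sheet. In the limb bud the basement membrane separates the ridge and the rest of the ectoderm from the mesenchyme below.

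The glycine step can be read in the probes themselves, and the probes shown here are those in which it is longest. A probe is shown where a reading frame without a stop codon held at least 4 glycine codons (GGN) in a row at steps of 9 bases; the rule was chosen after the sequences were seen. This was so for 4 of 63 collagen probes (6.35%), against 29 of all 55681 probes (0.0521%). Capitals mark the glycine codons of the run, the sequences are those of the array design written 5′ to 3′, and all lie on the plus strand of the mm9 build. The Col14a1 probe lies at chr15:55347733-55347792, the Col15a1 probe at chr4:47283786-47283845, the Col16a1 probe at chr4:129756457-129756516 and the Col25a1 probe at chr3:130270497-130270556.
Col14a1: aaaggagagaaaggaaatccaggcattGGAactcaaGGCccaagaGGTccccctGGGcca
Col15a1: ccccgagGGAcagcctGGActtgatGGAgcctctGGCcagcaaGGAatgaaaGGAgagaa
Col16a1: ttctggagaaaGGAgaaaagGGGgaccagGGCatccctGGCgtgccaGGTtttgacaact
Col25a1: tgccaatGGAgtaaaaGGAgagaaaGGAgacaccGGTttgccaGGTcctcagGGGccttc
The Col15a1 and Col25a1 probes were well above background on all 3 AER and all 4 Ectoderm arrays. The Col16a1 probe shown was well above background on 1 AER array and 0 Ectoderm arrays, and the Col14a1 probe on 0 AER arrays and 2 Ectoderm arrays.

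Levels below are log2 processed signals relative to the 75th percentile of the same array, so 0 is that percentile, and a level is compared between groups for the same probe only. The 75th percentile signal was 340.6 to 563.0 over the AER arrays, against 256.7 to 443.9 over the Ectoderm arrays, and the share of spots well above background was 48.7 to 55.2% over the AER arrays, against 48.9 to 51.1% over the Ectoderm arrays. Repeated spots of the same probe varied more on AER 1 and AER 2 (median SD 0.176 and 0.178 on the log2 scale) than on AER 3 (0.0583) or the Ectoderm arrays (0.0611 to 0.0635). Ectoderm 2 and Ectoderm 4 were the most alike of the 21 pairs of arrays (Pearson's r across genes 0.995, against 0.946 to 0.990 for the other pairs). All arrays lay on 1 slide, with AER 1 and Ectoderm 1, 2 and 3 in row 1 and AER 2, AER 3 and Ectoderm 4 in row 2.

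The labels were checked against cell type markers. All 15 epithelial markers were well above background on all arrays of both groups, and 14 of 15 were higher in AER. Of 9 ridge markers, 8 were higher in AER, and Fgf8, the growth factor made by the ridge, was higher by 7.01 (limma, adjusted p = 0.001286). The Ectoderm arrays also held muscle precursor and mesenchyme transcripts. All 7 tested muscle precursor markers were lower in AER, among them Myod1, a muscle-determining factor, at -4.90 in AER and 2.20 in Ectoderm. Only 1 of these 7 markers was well above background on all AER arrays, so markers that passed the filter through the Ectoderm arrays had to be lower in AER. All 12 limb mesenchyme markers were well above background on all Ectoderm arrays, and 10 were on all AER arrays.

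Of the 42 collagen genes, 28 had a probe well above background on at least 3 of 7 arrays and were tested. Genes with an adjusted p under 0.05 are called below. Higher in AER were 4 of the 28 (7.03% of all 20828 tested genes were), and lower in AER were 14 (8.65% of all genes were). The 10 remaining genes did not pass the threshold. By class the counts were 1 higher and 4 lower of 8 fibrillar genes, 3 higher and 0 lower of 8 basement membrane zone genes, and 0 higher and 10 lower of 12 others. The median difference, AER minus Ectoderm, was -0.46 for fibrillar, 0.40 for basement membrane zone and -1.84 for the other genes, beside -0.08 for all tested genes. With genes at background in AER set to their bound, the median of the other genes was -1.75. A member that passed only because it was high in a single group had to differ, so the counts were also taken over the 24 members well above background on all 7 arrays. Of these 24, 4 were higher and 11 lower in AER. Of all tested genes 86.7% were above background on all 7 arrays, and the share called among those genes was not counted. Over the 35 tested collagen probes, each tested on its own, 4 were higher in AER (6.98% of all tested probes) and 17 lower in AER (8.03% of all tested probes). For 18 of the 28 members the levels of AER and Ectoderm did not overlap, with AER above Ectoderm for 4 (12.5% of all genes) and below it for 14 (17.8% of all genes). These directions are relative to the 75th percentile of each array. With arrays centred on the epithelial markers instead, every difference shifted by -1.86, and 0 members were higher and 26 lower in AER. Of all 20828 tested genes, 176 were then higher and 19993 lower, so nearly all genes were lower under that centring, not collagens in particular. In bulk tissue, fewer cells of a type and less RNA per cell cannot be told apart.

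**Figure D1:**
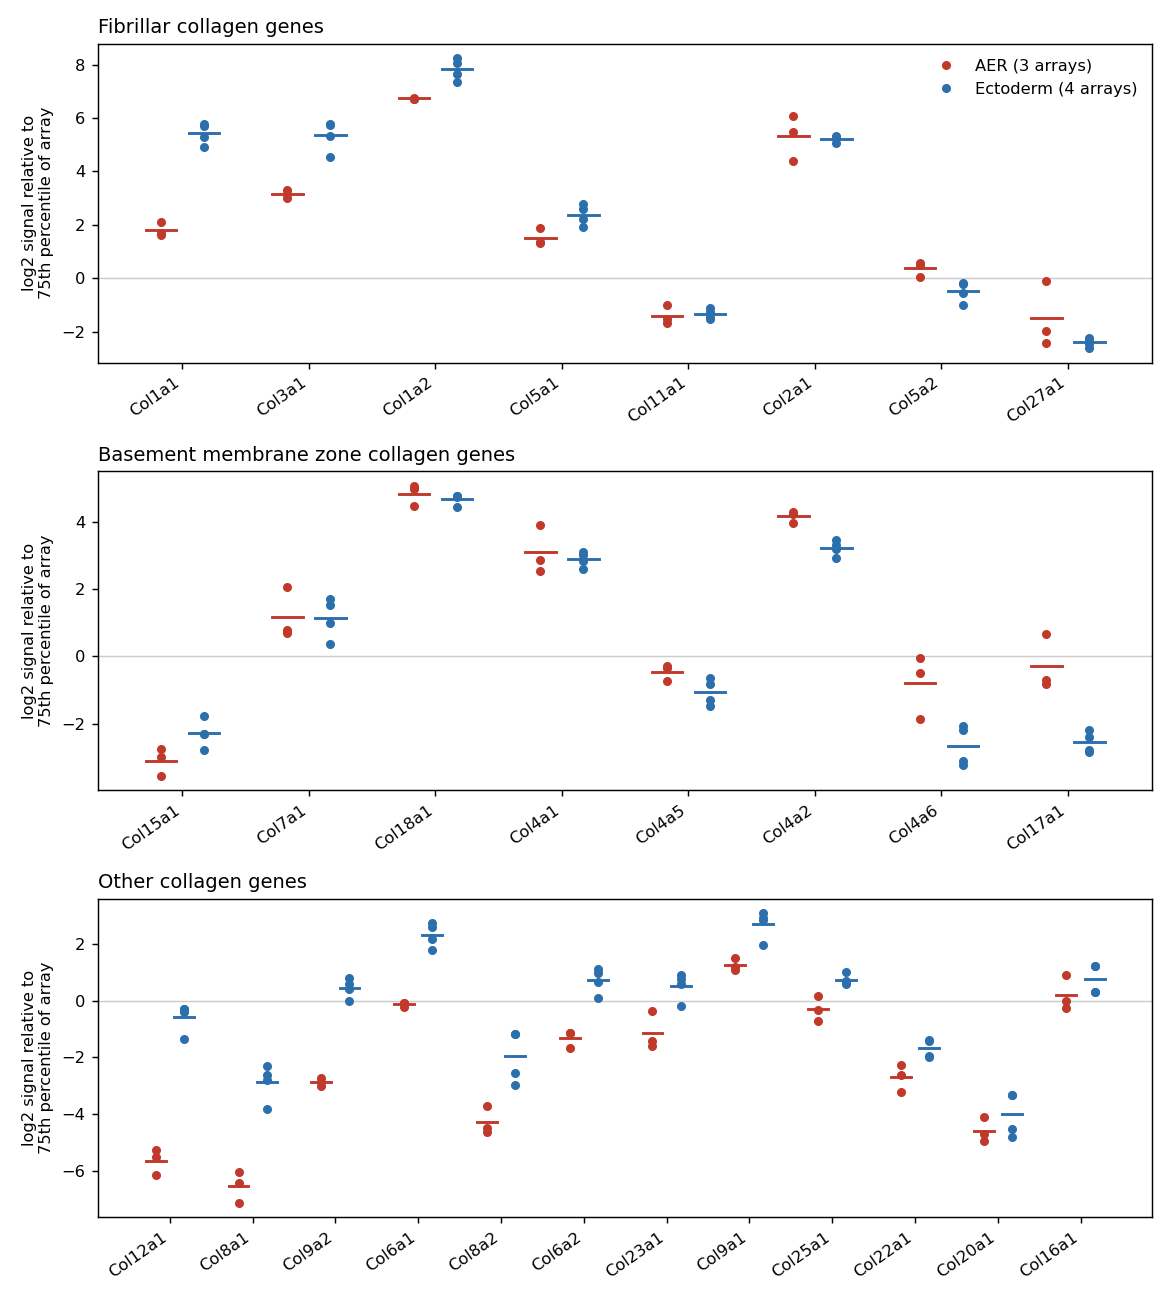
Level of each of the 28 tested collagen genes on each array (log2 processed signal relative to the array's 75th percentile), with AER arrays in red to the left of Ectoderm arrays in blue and bars at the group means. Col1a1, Col3a1 and most of the other class lie lower on all 3 AER arrays, and Col4a2, Col4a6 and Col17a1 lie higher on all 3.

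Among the fibrillar genes, both chains of type I collagen, the type III chain and the Col5a1 chain of type V were lower in AER, and the Col5a2 chain was higher. Col1a1, the alpha-1 chain of type I collagen, had the largest difference among them. Its probe (chr11:94813115-94813174 on mm9) had levels of 2.09, 1.63 and 1.69 on the AER arrays, against 5.30, 5.77, 4.89 and 5.70 on the Ectoderm arrays. The highest AER array lay 2.81 below the lowest Ectoderm array, and Col1a1 was 12.2-fold lower in AER (difference -3.61, 95% CI -4.16 to -3.07, adjusted p = 3.87e-05). Col1a2, the chain that pairs with it, had levels of 6.72, 6.71 and 6.76 on AER arrays and 7.66, 8.04, 7.33 and 8.23 on Ectoderm arrays. All 3 AER arrays were below all 4 Ectoderm arrays, and Col1a2 was 2.12-fold lower (difference -1.09, 95% CI -1.59 to -0.58, adjusted p = 0.0112). The call was lost with normexp background correction and quantile normalization (difference -0.50, adjusted p = 0.223) and with the authors' own values (-0.48, adjusted p = 0.243).

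Col3a1, the single chain of type III collagen, a companion of type I in soft tissue, had levels of 3.30, 3.02 and 3.14 on AER arrays and 5.32, 5.79, 4.54 and 5.74 on Ectoderm arrays. The groups did not overlap, Ectoderm 3 was the lowest Ectoderm array, and the gene was 4.58-fold lower in AER (difference -2.20, 95% CI -2.87 to -1.52, adjusted p = 0.00139). The type V chains, which join type I fibres and set their thickness, moved in opposite directions. Col5a1 had levels of 1.36, 1.88 and 1.31 on AER arrays and 2.20, 2.58, 1.92 and 2.76 on Ectoderm arrays, and was 1.81-fold lower in AER (difference -0.85, 95% CI -1.41 to -0.30, adjusted p = 0.0466). Col5a2 had levels of 0.04, 0.57 and 0.50 on AER arrays and -0.99, -0.18, -0.57 and -0.23 on Ectoderm arrays, and was 1.82-fold higher in AER (difference 0.86, 95% CI 0.32 to 1.40, adjusted p = 0.0411). Both gaps between groups are narrow, with AER 2 0.05 below Ectoderm 3 for Col5a1 and AER 1 0.22 above Ectoderm 2 for Col5a2. Each of these calls was lost in 5 of the 7 fits that leave out 1 array, with adjusted p up to 0.122 for Col5a1 (without AER 3) and 0.11 for Col5a2 (without AER 2).

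The other fibrillar genes did not pass the threshold. Col2a1, the main collagen of cartilage, had levels of 4.38, 6.08 and 5.47 on AER arrays and 5.26, 5.31, 5.05 and 5.29 on Ectoderm arrays (difference 0.09, 95% CI -0.71 to 0.88, adjusted p = 0.888). Its AER arrays spread more widely than its Ectoderm arrays and lay on both sides of them. Col11a1, a cartilage fibril chain, differed by -0.06 (95% CI -0.50 to 0.39). Col27a1, also known from cartilage, differed by 0.91 with a wide interval (-0.18 to 1.997), since AER 2 stood at -0.10 and the other AER arrays at -1.97 and -2.41, beside levels between -2.61 and -2.22 in Ectoderm. Col11a2, Col24a1 and Col5a3 were not tested: Col11a2 was well above background on 1 AER array and 0 Ectoderm arrays, Col24a1 on 1 of each, and Col5a3 on none.

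**Figure D2:**
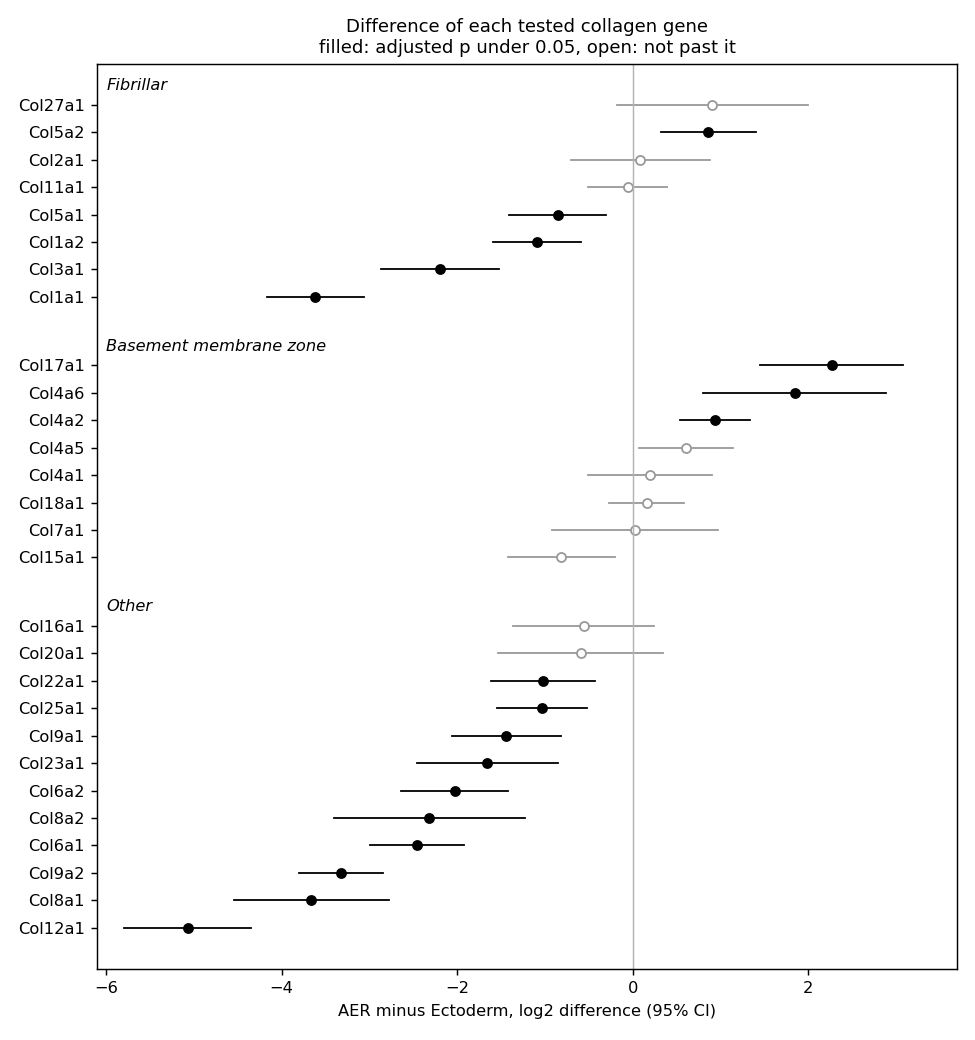
Difference of each tested collagen gene, AER minus Ectoderm, on the log2 scale with its 95% confidence interval, by class and in order of size, filled where the adjusted p is under 0.05. Filled points run from -5.07 (Col12a1) to 2.27 (Col17a1), and the other class holds no gene above 0.

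In the basement membrane zone, 3 genes were higher in AER and none passed the threshold as lower. Centring on the epithelial markers gave 0 higher and 6 lower, when 19993 of all 20828 tested genes were lower. Col17a1 encodes a collagen that spans the membrane of basal epithelial cells and ties them to the basement membrane at hemidesmosomes. Its probe (chr19:47720894-47720953 on mm9) had levels of -0.82, 0.67 and -0.68 on AER arrays and -2.82, -2.19, -2.78 and -2.38 on Ectoderm arrays. All AER arrays were higher than all Ectoderm arrays, AER 2 most, and Col17a1 was 4.81-fold higher in AER (difference 2.27, 95% CI 1.45 to 3.08, adjusted p = 0.00319). The fold was 2.19 with normexp background correction (difference 1.13, adjusted p = 0.00702) and 2.23 with the authors' values.

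Of the tested type IV chains, Col4a2 and Col4a6 passed the threshold, and Col4a1 and Col4a5 did not. Col4a2, the alpha-2 chain of the network found in nearly all basement membranes, had levels of 3.95, 4.29 and 4.22 on AER arrays and 2.92, 3.30, 3.17 and 3.46 on Ectoderm arrays. The groups were apart, and Col4a2 was 1.92-fold higher in AER (difference 0.94, 95% CI 0.54 to 1.34, adjusted p = 0.00774). Its partner Col4a1 had levels of 2.52, 3.88 and 2.84 on AER arrays and 2.59, 3.01, 2.83 and 3.103 on Ectoderm arrays. AER 2 stood above every Ectoderm array and AER 1 below every one, and the difference of 0.20 did not pass (95% CI -0.51 to 0.90, adjusted p = 0.695). The Col4a1 probe is printed 10 times on the array, and the SD of its log2 spots was 0.154, 0.108 and 0.0411 on AER 1, AER 2 and AER 3 and 0.0287 to 0.0752 on Ectoderm arrays, all smaller than the gap between AER 1 and AER 2.

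Col4a6, a chain of the network of skin and smooth muscle basement membranes, had levels of -1.84, -0.05 and -0.49 on AER arrays and -3.22, -2.06, -3.101 and -2.18 on Ectoderm arrays by the brighter of its 2 probes. That probe was 3.59-fold higher in AER (difference 1.85, 95% CI 0.80 to 2.89, adjusted p = 0.0279). Its other probe, also well above background on all arrays, had levels of -1.96, -2.44 and -1.98 on AER arrays and -2.02, -1.996, -1.82 and -1.83 on Ectoderm arrays (difference -0.21, adjusted p = 0.438 over probes). The 2 probes disagree in sign, and the call for Col4a6 holds for the first of them only. The call of the first probe was lost without AER 2 (1.47, adjusted p = 0.0947), AER 3 (1.69, 0.0837), Ectoderm 1 (1.65, 0.0647) or Ectoderm 3 (1.69, 0.0605). Col4a5, the chain that joins Col4a6, differed by 0.61 (95% CI 0.08 to 1.14, adjusted p = 0.118).

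The other tested members of the zone did not pass the threshold. Col18a1, the source of endostatin in many epithelial and vascular basement membranes, had levels of 4.46, 4.97 and 5.05 on AER arrays and 4.43, 4.76, 4.72 and 4.77 on Ectoderm arrays (difference 0.16, 95% CI -0.27 to 0.59). Col7a1, the anchoring fibril collagen below the epidermis, had levels of 0.79, 2.07 and 0.68 on AER arrays and 0.99, 1.52, 0.38 and 1.71 on Ectoderm arrays (difference 0.03, 95% CI -0.92 to 0.97). Both genes have overlapping groups. Col15a1, whose probe with its 6 glycine codons is shown above, differed by -0.81 (95% CI -1.42 to -0.20), with an adjusted p of 0.0769. Col4a3 and Col4a4, chains of kidney, lung and inner ear basement membranes, were well above background on no array by any of their 4 probes.

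Col4a1 and Col4a2 are neighbours on chromosome 8 and start head to head on opposite strands. Their promoter windows are shown beside their differences of 0.20 and 0.94. In RefSeq on the GRCm38.p6 build their start sites lie 21 bases apart, and the first bases of both genes overlap. The windows of 250 bases before to 50 after each start share 78 bases. The Col4a1 window is chr8:11312777-11313076 on the minus strand, and the Col4a2 window is chr8:11312555-11312854 on the plus strand. Capitals mark CCAAT and GGGCGG, searched on both strands, along with TATAAA, which neither window holds.
Col4a1: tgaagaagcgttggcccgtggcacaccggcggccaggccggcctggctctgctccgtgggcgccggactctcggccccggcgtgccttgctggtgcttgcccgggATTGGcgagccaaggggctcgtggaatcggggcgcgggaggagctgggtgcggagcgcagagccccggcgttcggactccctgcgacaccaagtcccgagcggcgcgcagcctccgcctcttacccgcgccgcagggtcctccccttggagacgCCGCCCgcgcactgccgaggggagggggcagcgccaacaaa
Col4a2: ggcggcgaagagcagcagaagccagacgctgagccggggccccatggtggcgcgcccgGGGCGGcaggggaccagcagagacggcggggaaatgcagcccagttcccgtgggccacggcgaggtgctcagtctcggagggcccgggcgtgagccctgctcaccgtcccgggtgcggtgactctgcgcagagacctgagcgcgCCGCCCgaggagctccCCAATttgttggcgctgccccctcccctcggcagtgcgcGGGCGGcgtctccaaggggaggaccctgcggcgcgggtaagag
Col4a1 held 1 match to CCAAT and 1 to GGGCGG, and Col4a2 held 1 and 3. The GGGCGG match of Col4a1 lies in the shared bases and is the last of the 3 in Col4a2, read on the other strand. These letters are common: CCAAT occurred in 37.4%, GGGCGG in 35.7% and TATAAA in 13.6% of all 32851 promoters of the same length. Of 37 collagen promoters, from the 34 member genes with a window, 13 (35.1%) held CCAAT, 23 (62.2%) held GGGCGG and 5 (13.5%) held TATAAA. A match is a description of the letters in a window and not a binding site.

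The remaining collagens include fibril-associated, beaded-filament, network and membrane-spanning types, and 10 of the 12 tested were lower in AER. Col12a1, a fibril-associated collagen of tendon and fascia, was well above background on 0 AER arrays and 4 Ectoderm arrays. Its levels were -5.28, -5.50 and -6.17 on AER arrays, which are values at background, and -0.29, -0.27, -1.34 and -0.40 on Ectoderm arrays. Col12a1 (chr9:79446895-79446954 on mm9) was therefore at least 17.7-fold lower in AER on the processed signal (fitted difference -5.07, adjusted p = 3.19e-05). With normexp background correction, which adds an offset of 50 to the signal, Col12a1 was 4.35-fold lower (difference -2.12, adjusted p = 1.99e-05), below that bound.

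Col9a1 and Col9a2 encode chains of type IX collagen, which decorates type II fibrils in cartilage. Col9a2 (chr4:120727698-120727757 on mm9) had levels of -2.86, -2.74 and -3.03 on AER arrays and 0.40, 0.58, -0.02 and 0.82 on Ectoderm arrays. The lowest Ectoderm array was 2.72 above the highest AER array, and Col9a2 was 9.98-fold lower in AER (difference -3.32, 95% CI -3.80 to -2.84, adjusted p = 3.35e-05). The fold was 4.82 with normexp background correction. Col9a1 had levels of 1.51, 1.20 and 1.08 on AER arrays and 1.97, 2.92, 3.09 and 2.84 on Ectoderm arrays, and was 2.71-fold lower (difference -1.44, 95% CI -2.06 to -0.82, adjusted p = 0.00814). The third type IX chain, Col9a3, was well above background on no array.

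Type VI collagen forms beaded filaments around cells. Col6a1 had levels of -0.07, -0.09 and -0.20 on AER arrays and 2.19, 2.62, 1.79 and 2.74 on Ectoderm arrays, and was 5.48-fold lower in AER (difference -2.46, 95% CI -2.99 to -1.92, adjusted p = 0.000222). Col6a2, its neighbour on chromosome 10, had levels of -1.14, -1.13 and -1.67 on AER arrays and 0.66, 0.97, 0.11 and 1.14 on Ectoderm arrays, and was 4.08-fold lower (difference -2.03, 95% CI -2.63 to -1.43, adjusted p = 0.0012). Ectoderm 3 was the lowest Ectoderm array and Ectoderm 4 the highest for both. The probes named Col6a4, Col6a5 and Col6a6 were well above background on no array. The probe named Gm7455, which RefSeq calls Col6a5 and the naming rule leaves out, was well above background on 0 AER arrays and 4 Ectoderm arrays, and the probe named Emid2 (Col26a1) on 3 AER and 4 Ectoderm arrays.

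Col8a1 and Col8a2 are short-chain network collagens known from vessels and the cornea. Col8a1 was well above background on 0 AER arrays and 3 of 4 Ectoderm arrays, and was at least 3.58-fold lower in AER on the processed signal (fitted difference -3.66, adjusted p = 0.000384). With normexp background correction, Col8a1 was 2.00-fold lower (difference -1.0026, adjusted p = 0.00307), below that bound. Col8a2 had levels of -4.49, -4.64 and -3.72 on AER arrays, 2 of them well above background, and -2.98, -1.16, -2.53 and -1.19 on Ectoderm arrays. Ectoderm 2 and 4 stood above Ectoderm 1 and 3, and Col8a2 was 4.99-fold lower in AER (difference -2.32, 95% CI -3.41 to -1.23, adjusted p = 0.0121). The call for Col8a2 was lost without AER 2 (-2.14, adjusted p = 0.0542), and its fold was 2.12 with normexp background correction.

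Among membrane-spanning collagens, Col23a1 had levels of -1.41, -0.37 and -1.60 on AER arrays and 0.77, 0.60, -0.17 and 0.93 on Ectoderm arrays. It was 3.15-fold lower in AER (difference -1.66, 95% CI -2.46 to -0.85, adjusted p = 0.0142), and its 3 probes gave differences from -1.66 to -1.42. Without AER 1 the adjusted p of Col23a1 was 0.0518 (difference -1.52). Col25a1, a collagen of neurons and muscle innervation, had levels of -0.34, -0.71 and 0.18 on AER arrays and 0.66, 0.60, 1.02 and 0.70 on Ectoderm arrays. It was 2.05-fold lower in AER (difference -1.03, 95% CI -1.54 to -0.52, adjusted p = 0.0155). Its 3 tested probes differed by -1.35 to -0.50, and the probe with the 6 glycine codons shown above gave the smallest of these differences (-0.50, adjusted p = 0.182 over probes).

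Col22a1, a collagen of tissue junctions such as muscle and tendon, was 2.03-fold lower in AER (difference -1.02, adjusted p = 0.0304), and the call was lost in 4 of the 7 fits that leave out 1 array (adjusted p up to 0.0864, without Ectoderm 4). It was also lost with normexp (-0.48, adjusted p = 0.0755), with the authors' values (-0.43, 0.133) and without a filter on dim probes (0.0754). Col16a1 and Col20a1 did not pass, with differences of -0.56 and -0.59. Of 14 genes with no tested probe of the naming rule, 10 were well above background on no array by those probes (Col6a5 among them, its Gm7455 probe left aside). They include Col10a1, the collagen of hypertrophic cartilage, and Col19a1 and Col28a1. Col13a1, a membrane-spanning collagen, was well above background on 2 AER arrays and 0 Ectoderm arrays.

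Col14a1, a fibril-associated collagen related to Col12a1, split the Ectoderm arrays. Both of its probes were well above background on Ectoderm 2 and Ectoderm 4 and on no other array. The first gave levels of -5.95, -7.10 and -6.40 on AER arrays and -6.01, -0.07, -5.72 and -0.28 on Ectoderm arrays. The second, which is the glycine-codon probe shown above, gave -4.03, -5.00 and -4.65 on AER arrays and -4.36, -2.83, -4.72 and -2.58 on Ectoderm arrays. With 2 arrays above background the gene was not tested.

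The 7 pairs of tested chains that share a collagen type were compared by their log2 ratio within each array, which cancels the scaling of the array. A ratio between different probes has no meaning of its own as a level, so only its change between groups was read. Col1a1 over Col1a2 was -4.64, -5.07 and -5.07 on AER arrays and -2.36, -2.26, -2.44 and -2.52 on Ectoderm arrays, a change of -2.53. Col5a1 over Col5a2 was 1.32, 1.31 and 0.81 on AER arrays and 3.19, 2.77, 2.49 and 2.99 on Ectoderm arrays, a change of -1.71. In both fibrillar types the first chain was lower relative to the second on all 3 AER arrays.

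Col4a1 over Col4a2 was -1.43, -0.41 and -1.37 on AER arrays and -0.33, -0.29, -0.34 and -0.36 on Ectoderm arrays, a change of -0.74. AER 2 lay only 0.05 below the nearest Ectoderm array, so most of this change rests on AER 1 and AER 3. Col9a1 over Col9a2 changed by 1.88, Col4a6 over Col4a5 by 1.24 with the brighter Col4a6 probe, and Col6a1 over Col6a2 by -0.43. The groups did not overlap in these 6 pairs, and each had an exact two-sided permutation p of 0.0571 (0.0666 adjusted over the 7 pairs), which is the smallest p that 3 arrays against 4 allow. For Col4a6 over Col4a5 this holds for the brighter Col4a6 probe only. The other Col4a6 probe differed by -0.21 between groups and Col4a5 by 0.61, so the ratio with that probe changed the opposite way. Col8a1 over Col8a2 changed by -1.34 with overlapping groups (exact permutation p = 0.114), and Col8a1 was at background on all AER arrays.

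**Figure D3:**
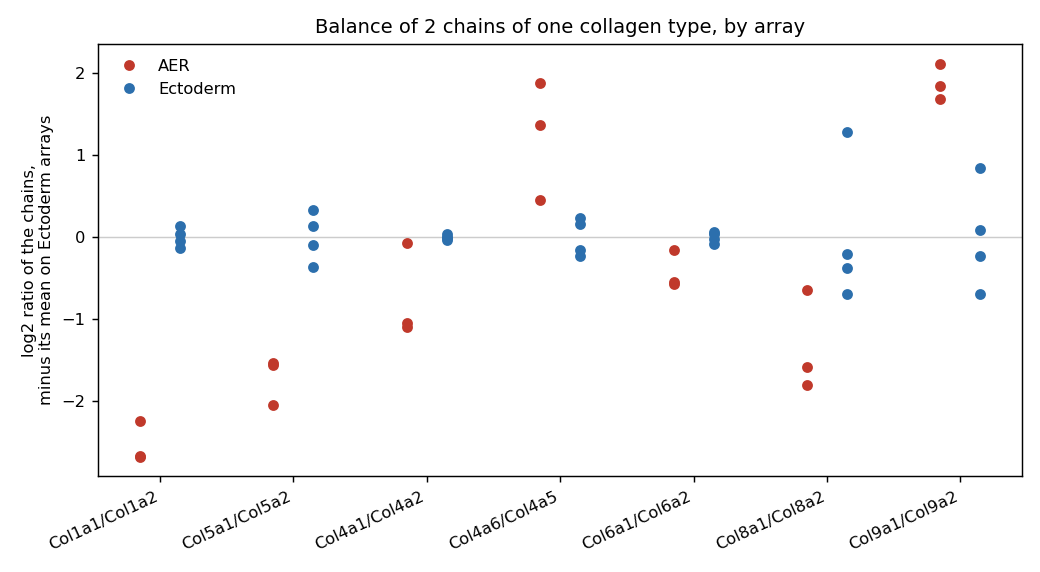
Log2 ratio of chain pairs of the same collagen type on each array, shifted so that the mean of the Ectoderm arrays is 0, with AER in red to the left of Ectoderm in blue. The Col1a1/Col1a2 and Col5a1/Col5a2 ratios lie lower on all 3 AER arrays, and Col9a1/Col9a2 lies higher.

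Several members lie next to each other in the genome. Col3a1 and Col5a2 are neighbours on chromosome 1 in RefSeq and differed by -2.20 and 0.86. Col6a2 and Col6a1 on chromosome 10 were both lower in AER. Col4a6 (by its brighter probe) and Col4a5 on chromosome X differed by 1.85 and 0.61, with start sites 1343 bases apart.

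Folding and modifying enzymes act on collagen chains in the secretory pathway. Of 21 such genes, 0 passed in either direction in limma, against 15.7% of all tested genes. An unadjusted p under 0.05 was found for 4 of the 21, without a count of the share of all tested genes under that threshold to set beside it. The median difference of the 21 was -0.02. The smallest adjusted p was 0.054, for P3h2, a prolyl 3-hydroxylase (difference -0.98). Plod2, a lysyl hydroxylase, differed by 0.60 (adjusted p = 0.0821), P3h1, a prolyl 3-hydroxylase, by -0.39 (0.112) and Fkbp14, a prolyl isomerase, by -0.43 (0.126). Serpinh1, the collagen chaperone HSP47, was chosen after its values were seen and averaged 5.98 in AER and 5.96 in Ectoderm.

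The genes that process and cross-link collagen outside the cell gave 1 higher and 2 lower of 10 tested. Over all tested genes 7.03% were higher and 8.65% lower, so the count of 1 higher is near that share. Loxl1, a lysyl oxidase that cross-links matrix fibres, averaged -2.08 in AER and 2.36 in Ectoderm and was 21.7-fold lower in AER (adjusted p = 1.35e-05). Lox, the founding enzyme of that family, was at background on all 3 AER arrays and at least 10.4-fold lower there (adjusted p = 6.66e-05). Adamts14, which trims procollagen ends, was higher by 0.55 (adjusted p = 0.0456). It no longer passed in 6 of the 7 fits that leave out 1 array (all but the fit without AER 1), with the slide row or the replicate number as a block, with array weights or with normexp. Loxl2, another lysyl oxidase, differed by -0.84 (adjusted p = 0.0975). The 7 remaining tested genes of this list, Loxl2 among them, did not pass in either direction.

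Of 9 tested collagen receptors, 0 were higher and 1 was lower, near the shares over all tested genes (7.03% higher and 8.65% lower). Ddr2, a receptor kinase for fibrillar collagens, was 1.59-fold lower in AER (difference -0.67, adjusted p = 0.0354). That call was lost in 6 of the 7 fits that leave out 1 array (all but the fit without Ectoderm 3), with the slide row or the replicate number as a block, with normexp and with the authors' values. Itga11, an integrin chain that binds fibrillar collagen, differed by 1.27 (adjusted p = 0.0656), Mrc2, an endocytic collagen receptor, by -0.38 (0.154), and Ddr1, the epithelial counterpart of Ddr2, by 0.43 (0.183). Of 13 partners of the type IV network, 7 were higher (7.03% of all tested genes were) and 0 lower (8.65% were), with a median difference of 0.84. When centred on the epithelial markers, 1 was higher and 8 lower, beside 176 higher and 19993 lower of all 20828 tested genes. Lama1 and Lama5, laminin chains of epithelial basement membranes, were higher by 2.61 and 2.08 (adjusted p = 0.00132 and 0.000306). Itga6, the laminin-binding integrin chain of hemidesmosomes, was higher by 1.67 (adjusted p = 0.000314) and Lamc1, a laminin chain, by 1.37 (adjusted p = 0.00352).

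Markers of several other cell types also differed between the groups, and their part in the collagen differences was not tested. The mean level of the 12 limb mesenchyme markers was 1.90 to 2.34 over the AER arrays, against 4.12 to 4.20 over the Ectoderm arrays, with 8 lower and 1 (Lhx9) higher in AER and Osr2 at background on all AER arrays. The 7 muscle precursor markers averaged -4.71 to -3.34 over the AER arrays, against 0.40 to 1.34 over the Ectoderm arrays, all lower in AER, with Msc at background on all AER arrays. Of 3 tendon precursor markers 2 were lower, among them Scx by 4.62 on the log2 scale, and the list averaged -0.27 to -0.01 over the AER arrays, against 1.73 to 2.12 over the Ectoderm arrays.

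The 8 tested cartilage precursor markers averaged -1.58 to -1.22 over the AER arrays, against -0.79 to -0.43 over the Ectoderm arrays. Of them, 2 were lower (Sox9 and Comp), 1 was higher (Hapln1), and Comp and Cnmd were at background on all AER arrays. The 15 epithelial markers averaged 3.11 to 3.28 over the AER arrays, against 1.10 to 1.59 over the Ectoderm arrays. Markers of endothelium and pericytes (0 higher and 1 lower of 10), macrophages (0 of 7), erythroid cells (0 of 8) and Schwann cells or neural crest (0 of 3) gave few or no calls in the same limma fit. At an unadjusted p under 0.05 these lists gave 2, 1, 2 and 1 genes. The share of all tested genes under that unadjusted threshold was not counted, so no excess or lack is read from these counts.

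Among the Ectoderm arrays, Ectoderm 3 stood lowest for most of the lower collagens. The 4 lower fibrillar genes averaged 3.37, 3.31 and 3.22 on AER arrays and 5.12, 5.55, 4.67 and 5.61 on Ectoderm arrays, and the 10 lower genes of the other class averaged -2.33, -2.34 and -2.42 on AER arrays and -0.12, 0.32, -0.38 and 0.34 on Ectoderm arrays. Ectoderm 3 was the lowest Ectoderm array for 10 of these 14 genes. It also had the lowest Ectoderm mean for muscle precursor (0.40) and tendon precursor (1.73) markers and the highest for ridge markers (0.70, against -1.21 to -0.73). For limb mesenchyme markers its mean was 4.12, close to the 4.17 to 4.20 of the other Ectoderm arrays. For epithelial markers it was 1.19, against 1.10, 1.51 and 1.59 on Ectoderm 1, 2 and 4. The 75th percentile signal of Ectoderm 3 (256.7) was the lowest of all arrays. None of the tested tendon precursor markers was itself lowest on Ectoderm 3, where Scx stood at 5.83, against 5.33, 5.70 and 5.88 on Ectoderm 1, 2 and 4. For all 4 collagens higher in AER, AER 2 was the highest AER array and AER 1 the lowest.

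**Figure D4:**
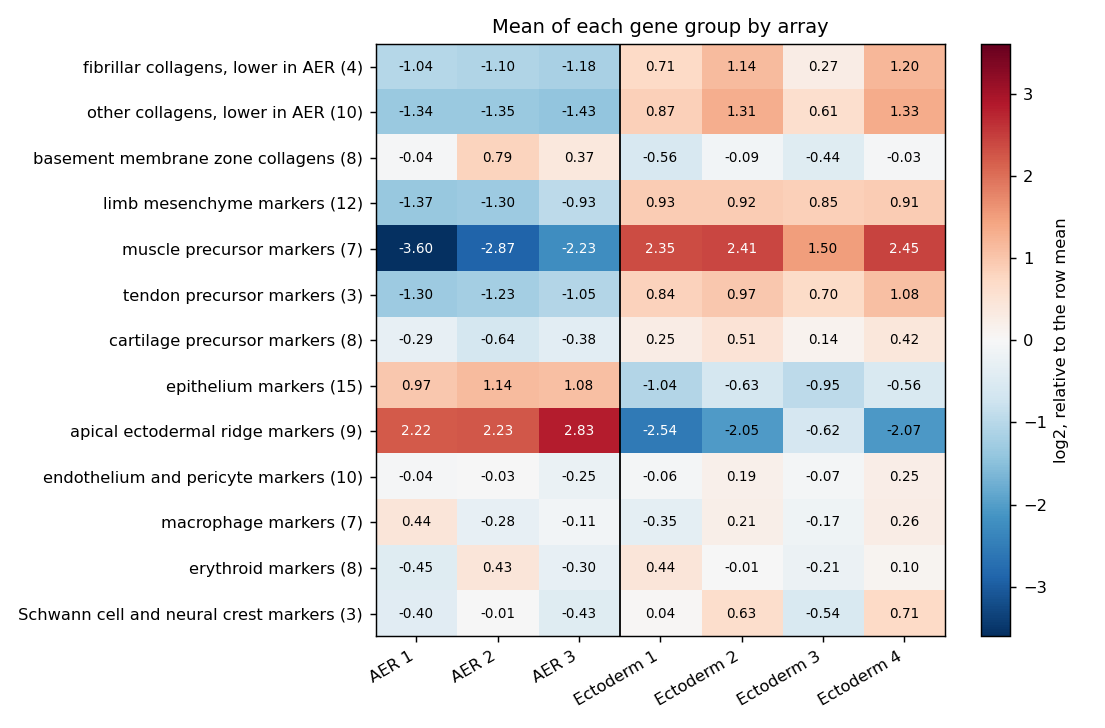
Mean level of collagen groups and marker lists on each array (log2, relative to the mean of its row over the 7 arrays), AER arrays left of the line and Ectoderm arrays right of it, number of genes in brackets. The rows of lower collagens hold only members called lower in AER, so their direction was set by that choice. The mesenchyme, muscle and tendon rows are also lower on the AER arrays, and the basement membrane zone row is highest on AER 2.

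Within slide rows, a fit has a single AER array (row 1) or a single Ectoderm array (row 2), so its spread comes from the other group alone and the lone array is assumed to vary like it. The levels of AER and Ectoderm did not overlap for any of the 18 called members. Each therefore had to keep its sign within row 1 (1 AER and 3 Ectoderm arrays) and within row 2 (2 AER and 1 Ectoderm array), so a kept sign is no separate result. Col1a1 differed by -3.24 and -4.04, Col9a2 by -3.18 and -3.70 and Col12a1 by -4.64 and -5.44 in rows 1 and 2. With the slide row as a block, 3 members were higher and 14 lower, Col5a2 being the call lost (difference 0.69, adjusted p = 0.109).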

How the data were processed

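For each of the 7 arrays the authors deposited a scanner file. Its processed signal is a linear intensity from which Agilent Feature Extraction 10.7.3.1 had removed background and spatial trends, without scaling between arrays, per the file headers. Mean and local background intensity values, and other columns holding flags per spot (well above background, saturated, uneven or outlying), come from the same deposited files. The deposited matrix of the authors' values is on a log2 scale, and normexp correction (offset 50) with quantile normalization gave it to within 0.000108. The submitters' processing notes name limma. Per the labels, 75 ng of RNA was labelled per array.

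Control and outlying spots were left out (0 collagen spots were outlying), spots of the same probe were averaged as log2 processed signal, and each array's 75th percentile was subtracted. No spot was saturated. Probes well above background on at least 3 arrays were kept (28282), and the probe with the highest mean stood for its gene. Genes were tested with limma 3.58.1 in R 4.3.3 (moderated two-sided test, group as the only term) and Benjamini-Hochberg adjustment over 20828 genes (28282 probes where stated) at 0.05. For a bound, a group at background was set to each array's dimmest signal that counted as well above background. Tables used data.table (version 1.17.8), pandas 2.3.3, numpy 2.4.6 and scipy 1.17.1 in Python 3.11.15, and plots matplotlib 3.10.9. The number of arrays limits the precision. The fit was tested on simulated data, and the outcome is not reported here, so nothing about its error rate is claimed.

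Members, classes and lists were chosen with earlier results of these data known. Values on every array are given for up to 8 called members per class with the smallest adjusted p, where every array of the higher group is well above background (which leaves out Col8a1), and for 9 preset members, and up to 4 genes per pathway list are named. Probe positions are on mm9, and exons and untranslated regions were not looked up for them. Alternatives covered background correction, normalization, filters, probe choice, array weights, slide row, replicate number, similar Ectoderm arrays and leaving out each array. Same-numbered arrays did not deviate together in every pair (correlations -0.03, 0.19 and 0.13), so the numbers were not treated as pairs.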

Additional observations from a re-analysis of the deposited data

Results flagged for a closer look

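Among the 35 tested collagen probes, 3 had an Ectoderm array far from the other Ectoderm arrays by Dixon's test, and chance gives about 1 in 20. For Col12a1, Ectoderm 3 stood at -1.344 beside -0.27 to -0.40 on the other Ectoderm arrays, while the AER arrays were at background. For a probe of Col23a1 that does not stand for the gene, Ectoderm 3 stood at -0.9079 beside 0.07 to 0.21 on the other Ectoderm arrays, and AER arrays lay at -2.24, -0.76 and -2.13. For Col18a1, Ectoderm 1 stood at 4.4345 beside 4.72 to 4.77 on the other Ectoderm arrays, and AER arrays lay at 4.46, 4.97 and 5.05.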

How the results depend on the processing

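Of 18 called members, 3 (Col1a1, Col9a2 and Col12a1) kept their call under all 23 alternatives, and 335 of 413 alternative values of called members kept direction and call, 72 lost the call and 6 changed sign. Centring on the epithelial markers shifted every difference by -1.86 and the median of all genes to -1.94: 0 members were then higher and 26 lower (fibrillar 0 and 8, basement membrane zone 0 and 6), and Col18a1 (-1.70), Col4a1 (-1.66), Col4a2 (-0.92), Col4a5 (-1.25), Col4a6 (-0.0119), Col7a1 (-1.83), Col27a1 (-0.95), Col2a1 (-1.77) and Col5a2 (-0.996) changed sign. The lists then gave 21 lower folding enzymes, 0 higher and 10 lower processing genes, 8 lower receptors, and 1 higher and 8 lower network partners. Of all 20828 tested genes, 176 were higher and 19993 lower under this centring.

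Col4a6 also changed sign with normexp (-0.0653), with normexp and quantile (-0.0124) and with the authors' values (-0.0084), where its other probe was the brighter and stood for the gene in both normexp fits. The fold of 6 of 18 called members moved by over 1.5 times with normexp, 7 with normexp and quantile and 8 with the authors' values. Normexp with quantile, and the authors' values, left 2 lower fibrillar genes, 1 lower folding enzyme, and 2 higher and 0 lower receptors. Normexp alone gave 0 higher processing genes and 1 higher and 0 lower receptors. Scaling by the percentile of only those probes that were detected on all arrays gave 1 higher folding enzyme and 1 higher and 0 lower receptors. Without a filter on dim probes 2 members were higher (fibrillar 0) and 0 receptors lower. A stricter filter gave 1 lower folding enzyme, and the mean of all probes 1 lower folding enzyme and 4 lower processing genes. Array weights gave 2 higher members (fibrillar 0), 1 higher and 1 lower folding enzyme and 0 higher processing genes. Apart from the construction of the filter and probe choices, the cause was not tested.

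The slide row as a block gave 0 higher fibrillar genes, 0 higher processing genes and 0 lower receptors. Within a row, 1 group has a single array, which is assumed to vary like the other group. Row 1 alone gave 0 higher and 3 lower members (fibrillar 0 and 1, basement membrane zone 0 higher, other 2 lower), 0 higher processing genes, 0 lower receptors and 1 higher network partner. Row 2 alone gave 2 higher members (fibrillar 0 higher and 2 lower), 0 higher processing genes, 0 lower receptors and 3 higher network partners. With the replicate number as a block, 4 members were higher and 14 lower, with Col5a1 lost (-0.72, adjusted p = 0.0673) and 1 lower basement membrane zone gene gained (Col15a1), 0 higher processing genes, and 1 higher and 0 lower receptors; the correlations gave no pairing. Averaging Ectoderm 2 and 4 gave 0 higher fibrillar genes, 0 higher processing genes and 0 lower receptors, and the calls of Col5a1, Col5a2 and Col22a1 were lost.

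Leaving out each array in turn gave 2 to 4 higher and 11 to 14 lower members (fibrillar 0 to 1 and 3 to 4, basement membrane zone 2 to 3 higher, other 8 to 10 lower), 0 to 1 higher and 0 to 1 lower folding enzymes, 0 to 1 higher processing genes, and 0 to 1 higher and 0 to 1 lower receptors. In these fits 12 of 18 members kept their call. The counts of 2 higher members came without AER 2, AER 3, Ectoderm 1 or Ectoderm 3. AER 3 alone, an alternative chosen after seeing the data because its repeated spots varied least among the AER arrays, gave 1 higher and 7 lower members (fibrillar 0 and 1, basement membrane zone 1 higher, other 6 lower), 1 higher folding enzyme, 0 higher processing genes, 0 lower receptors and 4 higher network partners; that array is assumed to vary like the Ectoderm arrays. Signal at background limits Col12a1 and Col8a1 to bounds and leaves 14 members untested.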
